A study of Rattus norvegicus with 22 samples.

Results

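Expression of 9 chemokine system genes was followed in the kidneys of 22 rats. They were the ligands Ccl2, Ccl5, Cxcl1, Cxcl10, Cxcl12, Cxcl16 and Cx3cl1 and the receptors Cx3cr1 and Ccr2. The genes were chosen by name, with earlier results of these data known, and 8 of the 9 were read among the 17334 genes listed for each rat. Ccr2, the receptor of Ccl2, was not analysed here. All rats were males of the strain PKD/Mhm heterozygous for the cystic allele (Cy/+), a model of dominant polycystic kidney disease in which cysts grow from the tubules, and all were 8 months old. Of these, 6 rats were untreated, 6 received adipose-derived stromal cells (ASC) intraperitoneally (i.p. ASC), 6 received ASC intravenously (i.v. ASC) and 4 received CM, in the study's methods the medium conditioned by ASC. Injections were given monthly for 6 months. The labels give no route for CM and no batch. In the study's methods the ASC were human, and no rat without the cystic allele entered the comparisons. RNA came from the whole left kidney, a mixture of tubule, vessel, stromal and blood-borne cells, in which fewer cells of a type and less RNA per cell cannot be told apart.

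Chemokines are small secreted or membrane-held proteins that direct the movement of white blood cells through receptors coupled to G proteins. Ccl2 draws monocytes through Ccr2, Ccl5 draws T cells and monocytes, Cxcl10 draws activated T cells and is a classic product of interferon signalling, and Cxcl1 draws neutrophils and is a classic product of NF-kB signalling. Cxcl12 is made by stromal and endothelial cells and retains leukocytes and progenitor cells in tissues through Cxcr4. Cxcl16 and Cx3cl1 (fractalkine) are made as membrane proteins and released by the proteases Adam10 and Adam17. Cx3cr1, the receptor of Cx3cl1, is carried by monocytes, kidney macrophages and some lymphocytes.

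The 250 bases before 1 start site per gene were read from RefSeq (build GRCr8) for 7 of the 9 genes. Ccl2 and Ccl5 are named only. The windows of 4 ligands are shown, those of Cxcl1 and Cxcl10 as inducible ligands and those of Cxcl12 and Cx3cl1 as the ligands for which all CM rats lay above all untreated rats in CPM. Capitals mark matches to the NF-kB consensus, to GAAA followed after any 2 bases by another GAAA (the interferon repeat of interferon-stimulated response elements) and to TATAAA, all searched on both strands. Cxcl1 (chr14:17479322-17479571, minus strand) held 1 stretch that matched the NF-kB consensus on both strands in overlapping positions, from -84 to -74 relative to the start. Cxcl10 (chr14:15988816-15989065, plus strand) held the interferon repeat at -243 to -234, NF-kB matches from -187 to -178 and, on both strands, from -128 to -118, and TATAAA at -162 to -157. Cxcl12 (chr4:152060531-152060780, plus strand) held none of these motifs. Cx3cl1 (chr19:10242821-10243070, minus strand) held TATAAA at -78 to -73. This window lay inside the annotated Cx3cl1 gene (10233326 to 10244856), before an internal start site and not at the gene's outer end.
Cxcl1: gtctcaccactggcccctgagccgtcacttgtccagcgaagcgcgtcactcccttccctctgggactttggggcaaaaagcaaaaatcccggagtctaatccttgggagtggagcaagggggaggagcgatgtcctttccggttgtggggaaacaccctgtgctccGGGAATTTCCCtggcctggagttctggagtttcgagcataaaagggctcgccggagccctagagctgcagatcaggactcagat
Cxcl10: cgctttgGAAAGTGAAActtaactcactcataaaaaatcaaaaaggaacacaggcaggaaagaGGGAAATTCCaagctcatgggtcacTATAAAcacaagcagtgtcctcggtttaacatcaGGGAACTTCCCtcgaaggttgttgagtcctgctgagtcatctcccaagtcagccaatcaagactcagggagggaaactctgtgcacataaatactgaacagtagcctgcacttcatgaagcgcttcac
Cxcl12: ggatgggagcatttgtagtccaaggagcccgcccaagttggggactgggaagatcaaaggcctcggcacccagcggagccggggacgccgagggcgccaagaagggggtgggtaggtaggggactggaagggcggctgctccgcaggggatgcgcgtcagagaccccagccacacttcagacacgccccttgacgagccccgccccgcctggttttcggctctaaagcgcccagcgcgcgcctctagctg
Cx3cl1: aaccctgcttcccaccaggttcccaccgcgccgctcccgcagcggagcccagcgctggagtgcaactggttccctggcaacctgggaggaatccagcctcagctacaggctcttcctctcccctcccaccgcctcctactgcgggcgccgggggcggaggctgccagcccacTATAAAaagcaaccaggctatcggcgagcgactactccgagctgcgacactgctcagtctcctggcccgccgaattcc
Of 33469 rat promoters of the same length, 6.33% held a match to NF-kB, 3.41% held the interferon repeat and 12.9% held TATAAA. The GC-rich motif CCGCCC, left in lower case, occurred in 30.5% of them, 3 times before Cxcl12 and 1 time before Cx3cl1. GC content was 67.6% before Cxcl12 and 45.2% before Cxcl10. These matches are letters in a window, and no binding was measured.

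The deposited counts summed to between 12195682 and 14734772 per rat. Genes largely kept their order of level between rats, and the lowest Spearman correlation of any pair was 0.97. The tubule genes Umod and Slc12a1 were at 1729 ± 613 and 208 ± 71.3 TPM (SD, n = 6) in untreated rats, so defining kidney genes were present. TPM is the level per transcript length scaled to the library, and CPM is the count scaled to the size of the library (TMM), which compares rats but not genes of different length. Urothelium genes stood apart in 4 of the 6 i.v. ASC rats (3, 9, 10 and 13), whose mean over 5 markers lay above that of every rat outside the group. The summed level of the markers listed was 2.48 to 545 TPM in i.v. ASC, 2.02 to 16.7 in untreated, 2.08 to 10.4 in i.p. ASC and 3.09 to 3.73 in CM rats. For the comparisons of the i.v. ASC group, the fitted values of the members and the counts of the pathway lists are also given without these 4 rats.

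In untreated rats the genes covered a wide range of levels per length. Cxcl16 was highest at 284 ± 30.9 TPM (SD, n = 6), followed by Cxcl12 at 237 ± 31.1. Cxcl16 was above Cxcl12 in 6 of 6 rats, although their ranges overlapped. Cx3cl1 stood at 109 ± 11.7 TPM and Ccl2 at 80.9 ± 17.8, with Cx3cl1 above Ccl2 in 5 of 6 rats and overlapping ranges. Cxcl10 (35.8 ± 12.2 TPM) and Ccl5 (29.8 ± 7.32 TPM) overlapped too, with Cxcl10 the higher in 4 of 6 rats. Cx3cr1 was at 10.7 ± 2.11 TPM and Cxcl1 at 7.005 ± 1.77, again with overlapping ranges although Cx3cr1 was the higher in 6 of 6 rats. The steps from Cxcl12 to Cx3cl1, from Ccl2 to Cxcl10 and from Ccl5 to Cx3cr1 showed no overlap in untreated rats. The order of the means was the same after both ASC routes. In CM rats Cxcl12 (302 ± 54.7 TPM, n = 4) came before Cxcl16 (268 ± 64.9 TPM), in 3 of 4 rats and with overlapping ranges.

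Among 54 chemokine and chemokine receptor genes ranked by mean TPM over the 22 rats, the lymphoid ligands Ccl21 (1310.2 TPM) and Ccl19 (484 TPM) ranked 1 and 2, and Cxcl16, Cxcl12 and Cx3cl1 ranked 3, 4 and 5. Ccl21 has near-identical copies in rodents, so its level is uncertain. Ccl2 ranked 8, Cxcl10 12, Ccl5 15, Cx3cr1 26 and Cxcl1 34. Of the receptors of these ligands, named here for that role after their values were seen, Ackr3 was at 46.2 TPM, Cxcr4 at 24.1, Cxcr3, the receptor of Cxcl10, at 9.37, Cxcr6, the receptor of Cxcl16, at 9.19 and Cxcr2, the receptor of Cxcl1, at 1.69. Against all 12867 genes tested, Cxcl16 and Cxcl12 lay at the percentiles 95.5 and 95.2 by mean TPM, and Cxcl1 at the percentile 24.5. Cxcl1 rested on 18 to 94 counts per rat, against 2704 to 5531 for Cxcl16.

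Ccl2, the monocyte attractant, ranged from 24.7 to 47.6 CPM (median 33.8) in untreated rats. Its range was from 18.2 to 45.7 CPM (median 32.2) after ASC i.p. and from 16.5 to 60.4 CPM (median 30.9) after ASC i.v. CM rats had 19.7, 24.6, 34.2 and 34.5 CPM. Both extremes of the 22 rats lay in the i.v. ASC group, in rats 3 and 8, and all groups overlapped.

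Ccl5, the T cell and monocyte attractant, ranged from 6.42 to 10.3 CPM (median 7.75) without treatment and from 4.44 to 9.08 CPM (median 6.38) after ASC i.p. The i.v. ASC rats ran from 2.10 to 11.8 CPM (median 6.40) and the CM rats had 3.58, 6.46, 9.87 and 13.1 CPM. The lowest rat was i.v. ASC rat 3 and the highest CM rat 21. Ccl5 had the largest spread of the 8 genes, an SD within groups of 0.65 on the log2 CPM scale, at the percentile 92.0 of all genes tested. All groups overlapped.

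Cxcl10, the interferon-induced T cell attractant, ranged from 14.4 to 36.9 CPM (median 22.4) in untreated rats, from 20.03 to 29.6 CPM (median 22.3) in i.p. ASC rats and from 15.4 to 31.4 CPM (median 20.9) in i.v. ASC rats. CM rats had 15.2, 26.4, 26.8 and 46.3 CPM. The highest value again belonged to CM rat 21, and every other rat lay within the untreated range.

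Cxcl1, the neutrophil attractant, was low throughout, from 2.43 to 5.11 CPM (median 3.70) in untreated rats and from 2.86 to 5.02 CPM (median 3.48) in i.p. ASC rats. After ASC i.v. it ranged from 1.45 to 7.79 CPM (median 2.96), with rats 3 and 8 at the ends. CM rats had 2.25, 2.47, 2.87 and 4.35 CPM. All groups overlapped.

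Cxcl12, the stromal ligand of Cxcr4 and Ackr3, ranged from 296 to 413 CPM (median 395) in untreated rats. It spread from 217 to 526 CPM (median 418) after ASC i.p. and from 254 to 520.0 CPM (median 382) after ASC i.v. The 4 CM rats had 445, 463, 527 and 553 CPM, all above the highest untreated rat. Rats given cells lay on both sides of the untreated range.

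Cxcl16, the membrane ligand of Cxcr6, ranged from 305 to 362 CPM (median 313) without treatment. The range was from 288 to 366 CPM (median 306) in i.p. ASC rats and from 219 to 415 CPM (median 312) in i.v. ASC rats. CM rats had 257, 291, 324 and 381 CPM. All groups overlapped.

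Cx3cl1, or fractalkine, ranged from 220.4 to 265 CPM (median 235) in untreated rats, from 210 to 294 CPM (median 246) after ASC i.p. and from 222 to 323 CPM (median 267) after ASC i.v. CM rats had 266, 271, 298 and 313 CPM. The lowest CM rat lay just above the highest untreated rat, and the ASC groups overlapped with both. Cx3cl1 had the smallest spread of the 8 genes, an SD within groups of 0.16 on the log2 CPM scale.

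Cx3cr1, the receptor of fractalkine, ranged from 7.12 to 11.5 CPM (median 8.53) in untreated rats and from 5.71 to 11.9 CPM (median 7.83) in i.p. ASC rats. The i.v. ASC rats ran from 3.64 to 11.7 CPM (median 9.47) and the CM rats had 5.09, 8.11, 12.7 and 14.5 CPM. As for Ccl5, the lowest rat was i.v. ASC rat 3 and the highest CM rat 21, and the groups overlapped.

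**Figure D1:**
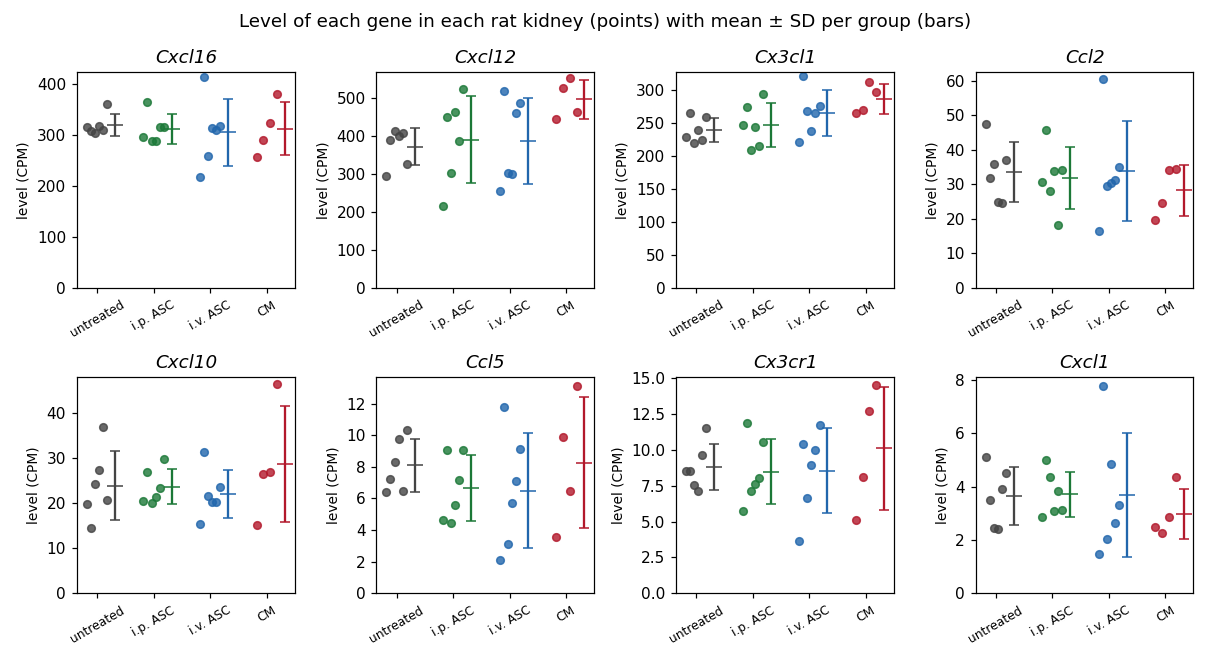
The level in CPM of each of the 8 genes (1 panel each) in each rat, by treatment group, with the group mean and SD as bars. Groups overlap in every panel, except that for Cxcl12 and Cx3cl1 the 4 CM rats lie above the 6 untreated rats.

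The extremes came repeatedly from the same rats. I.v. ASC rat 3 lay below the mean of the 22 rats in 8 of 8 genes and was the lowest rat in 5. I.v. ASC rat 8 lay above in 8 of 8 and was the highest in 4, and CM rat 21 lay above in 8 of 8 and was the highest in 3. In the i.p. ASC group, rat 5 lay below in 8 of 8 and rat 6 above in 8 of 8. Averaged over the genes, the deviation on the log2 CPM scale was -0.84 in i.v. ASC rat 3 and 0.61 in i.v. ASC rat 8, against -0.054 to 0.19 over the 6 untreated rats. Whether the groups differ in spread was not tested.

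**Figure D2:**
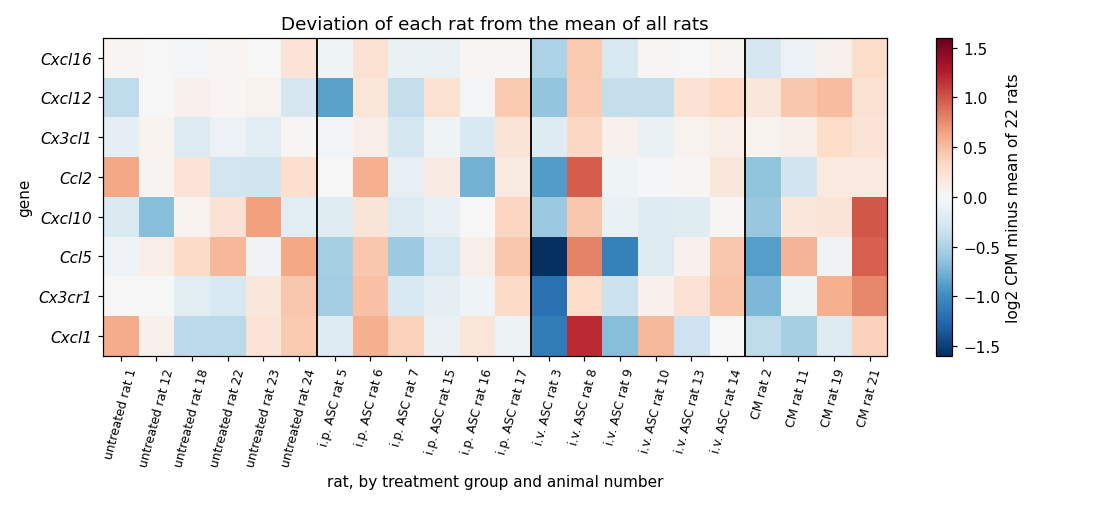
The log2 CPM of each gene in each rat, by group, minus the mean of the 22 rats, as a heat map with red for above and blue for below. I.v. ASC rat 3 is below, and i.v. ASC rat 8 and CM rat 21 are above, in 8 of 8 genes.

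The question of the design was whether a treatment changed expression relative to untreated cystic kidneys. After ASC i.p., 0 of 8 members passed the quasi-likelihood test of edgeR (Benjamini-Hochberg adjusted p over all genes, threshold 0.05), where 0 of 12867 genes (0%) were called. An unadjusted p under 0.05 was found for 500 genes (3.89%) and 0 members, and DESeq2 and limma called 0 genes. Fitted log2 fold changes were above 0 in 3 and below 0 in 5 of 8 members, against 46.2% and 53.8% of all genes, with a median of -0.026 against -0.014 over all genes. They ran from Ccl5 (log2 -0.28, SE 0.34, edgeR adjusted p = 0.848) to Cxcl12 (log2 0.072, SE 0.19, edgeR adjusted p = 0.932). The 95% interval of the fold was 0.822 to 1.16 for Cxcl16 and, much wider, 0.503 to 1.35 for Ccl5. No member separated the groups in CPM, which held for 2 genes in the direction of an increase (0.0155%) and 16 of a decrease (0.124%).

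After ASC i.v., 0 of 8 members passed, with 0 of 12867 genes (0%) called and 1133 genes (8.81%), 0 of them members, at an unadjusted p under 0.05. DESeq2 called 28 genes, none a member, and limma 0. Fitted log2 fold changes were above 0 in 4 and below 0 in 4 of 8 members, against 47.5% and 52.5% of all genes. The CPM ranges overlapped for all 8 members, while 3 genes lay wholly higher (0.0233%) and 20 wholly lower (0.155%). The largest fitted increase was that of Cx3cl1 (log2 0.15, SE 0.092, edgeR adjusted p = 0.541), a fold of 1.11 with a 95% interval of 0.968 to 1.26. The largest fitted decrease was that of Ccl5 (log2 -0.32, SE 0.34, edgeR adjusted p = 0.687), a fold of 0.801 with an interval of 0.488 to 1.31. With the 4 rats high in urothelium genes left out, which leaves i.v. ASC rats 8 and 14, 8 of 8 members were above 0 and none passed (edgeR adjusted p = 0.997). The median of the members was 0.35, against -0.020 over all genes. Rat 8 lay above the mean of the 22 rats in 8 of 8 members and rat 14 in 7, so this count rests on these 2 rats. The sign turned for 4 members, with Ccl5 at 0.37 in place of -0.32, Cxcl10 at 0.21 in place of -0.11, Cxcl16 at 0.20 in place of -0.065 and Cx3cr1 at 0.33 in place of -0.041. Ccl2 was at 0.50 in place of 0.0077, Cxcl1 at 0.59 in place of 0.0047, Cxcl12 at 0.44 in place of 0.059 and Cx3cl1 at 0.32 in place of 0.15. With the urothelium marker mean as a covariate over all rats, the values of Ccl5, Cxcl16 and Cx3cr1 were 0.34, 0.17 and 0.28, and again none passed. Both alternatives were chosen after seeing the data.

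Between the routes, i.v. against i.p., 0 of 8 members and 0 of 12867 genes (0%) were called by edgeR, and 281 genes (2.18%), 0 of them members, had an unadjusted p under 0.05. DESeq2 called 24 genes, none a member, and limma 0. Of 8 members 3 were higher by value after the i.v. route and 5 lower, against 45.9% and 54.1% of all genes, and the ranges overlapped for all 8, while 6 genes lay wholly higher (0.0466%) and 1 wholly lower (0.00777%). Fitted log2 differences ran from -0.10 for Cxcl10 (SE 0.23) to 0.10 for Cx3cl1 (SE 0.092). The 95% interval of the fold between routes was 0.938 to 1.22 for Cx3cl1 and 0.590 to 1.598 for Ccl5. Leaving out the 4 i.v. ASC rats high in urothelium genes left i.v. ASC rats 8 and 14. Then 8 of 8 members were higher by value after the i.v. route, and none passed. The median of the members was 0.37, against -0.018 over all genes. Rat 8 lay above the mean of the 22 rats in 8 of 8 members and rat 14 in 7, so this count rests on these rats. This alternative was chosen after seeing the data. The sign turned for Ccl5 (0.64 in place of -0.042), Cxcl1 (0.56 in place of -0.014), Cxcl10 (0.21 in place of -0.10), Cxcl12 (0.36 in place of -0.013) and Cxcl16 (0.22 in place of -0.027). Ccl2 was at 0.57, Cx3cl1 at 0.26 and Cx3cr1 at 0.38.

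After CM, 0 of 8 members passed, as did 0 of 12867 genes (0%) by edgeR, while 849 genes (6.6%) had an unadjusted p under 0.05, among them 1 member, Cx3cl1. DESeq2 called 4 genes, none a member, and limma 0. Fitted log2 fold changes were above 0 in 5 and below 0 in 3 of 8 members, against 49.1% and 50.9% of all genes, with a median of 0.11 against -0.0029. Cx3cl1 was 1.196-fold higher, with a 95% interval of 1.03 to 1.39 (log2 0.26, SE 0.10, edgeR adjusted p = 0.711, unadjusted p = 0.0202). Cxcl12 was 1.34-fold higher, with an interval of 0.981 to 1.82 (log2 0.42, SE 0.21, edgeR adjusted p = 0.711, unadjusted p = 0.0643). For both, all 4 CM rats lay above all 6 untreated rats in CPM, which held for 56 of 12867 genes (0.435%), and 0 members lay wholly lower, as 127 genes did (0.987%). Exact permutation of these 10 rats (two-sided) gave p = 0.0095 for each, the smallest that 4 rats against 6 can give, and 0.659 after adjustment over all genes tested. In TPM the groups overlapped for both genes, with a difference of 0.34 for Cxcl12 and 0.19 for Cx3cl1 on the log2(TPM + 1) scale. On that scale the median difference of all genes tested from untreated rats was -0.066 in CM, -0.10 in i.p. ASC and -0.12 in i.v. ASC rats.

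Leaving out 1 rat at a time kept the log2 fold change in CM rats between 0.36 and 0.46 for Cxcl12 and between 0.21 and 0.29 for Cx3cl1. The other 6 members in CM rats ran from Cxcl1 (log2 -0.29, SE 0.36, edgeR adjusted p = 0.912) to Cxcl10 (log2 0.27, SE 0.25, edgeR adjusted p = 0.876), with log2 fold changes of -0.25 for Ccl2, 0.029 for Ccl5, -0.031 for Cxcl16 and 0.20 for Cx3cr1. A single edgeR test for any difference among the 4 groups called 11 of 12867 genes (0.0855%) and 0 of 8 members. The smallest member p there was that of Cx3cl1 (unadjusted p = 0.0870, edgeR adjusted p = 0.912). The comparisons with untreated rats share the same 6 control rats.

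Stromal marker levels were higher on average in CM rats by value, with overlapping ranges. Their mean log2 CPM was 6.73 ± 0.63 in CM (n = 4) and 6.50 ± 0.13 in untreated rats (n = 6), a difference of 0.22 (exact permutation p = 0.4). CM rat 2 was at 5.93, below the untreated range of 6.39 to 6.68, and CM rats 11, 19 and 21 were at 6.56, 7.37 and 7.05. Of 9 markers, 8 had a fitted increase, against 49.1% of all genes, with a median log2 fold change of 0.49 and a lowest of -0.54, and 0 passed. Their summed level was 379 to 1201 TPM in CM and 518 to 676 in untreated rats. Col1a1, a fibrillar collagen chain, was at 89.4 ± 30.5 against 61.7 ± 10.7 TPM (log2 0.60, SE 0.31, adjusted p = 0.711, edgeR), and Pdgfrb, a receptor of pericytes and fibroblasts, at 35.0 ± 21.9 against 33.9 ± 11.5 TPM. Over the 40 comparisons of marker lists between groups the smallest adjusted exact permutation p was 0.606. Markers of endothelium, another source of Cxcl12, were lower by value in CM rats, as in both ASC groups. Their mean log2 CPM was 6.12 ± 0.64 in CM and 6.47 ± 0.18 in untreated rats, a difference of -0.35 (exact permutation p = 0.238), and their summed level was 179 to 461 and 305 to 441 TPM. Of 8 endothelium markers 8 had a fitted decrease, with a median log2 fold change of -0.23, and 0 passed. The same 8 were lower after ASC i.p. (median -0.23) and after ASC i.v. (median -0.36). Of all genes, 50.9% had a fitted decrease after CM, 53.8% after ASC i.p. and 52.5% after ASC i.v. The part of stromal and endothelial cells in the Cxcl12 values was not tested.

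**Figure D3:**
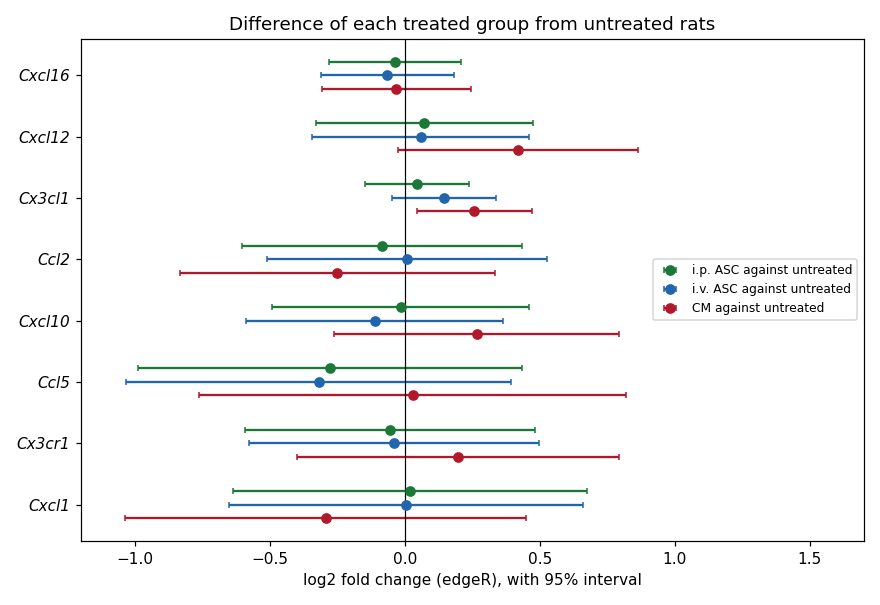
Fitted log2 fold change (x axis) of each gene (y axis) in each treated group against untreated rats, with 95% intervals derived from edgeR's F test as bars. Every interval crosses 0 except that of Cx3cl1 in CM rats, 0.044 to 0.47 before any adjustment for the number of genes.

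The genes also varied together from rat to rat. Over the 22 rats, log2 CPM of 28 of 28 pairs of members had a positive Pearson r, and 20 pairs passed a two-sided permutation test (100000 permutations, adjusted over 76 relations). Within the groups of 6 rats the signs were not all positive. Of the 28 pairs, r was below 0 for 13 in untreated, 1 in i.p. ASC and 0 in i.v. ASC rats, and in untreated rats it was -0.81 for Cxcl1 with Cxcl12 and -0.80 for Ccl2 with Cxcl12 (n = 6). The other 48 relations paired each member with the mean of 6 marker lists that hold no member, and 32 of these passed. All 52 that passed were positive. With the group means removed 49 of them passed too, and with Spearman's rho 44. A pass alone did not set a member apart from other genes. Among all genes tested, r with the endothelium markers lay at the percentile 76.8 for Cxcl1 and 78.3 for Cxcl10, and both passed. For Cx3cr1 with the macrophage markers the percentile was 99.1. Without i.v. ASC rats 3 and 8, which lie at opposite ends, 21 of the 76 relations passed, so the pass of many relations depended on these 2 rats. That alternative was chosen after seeing the data.

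Of the 6 marker lists, Cx3cr1 had its highest r with the macrophage markers, at r = 0.93 (rho = 0.91, adjusted permutation p = 7.6e-05), where 1e-05 before adjustment is the smallest p these permutations can give. It was at 0.93 with group means removed, 0.88 without the 2 rats farthest from the median of the marker mean and 0.91 without i.v. ASC rats 3 and 8. This r lay at the percentile 99.1 of all genes tested. Cxcl16 came next at r = 0.92 (rho = 0.87, adjusted permutation p = 7.6e-05), with 0.93 without the 2 farthest rats, 0.88 without rats 3 and 8, and the percentile 98.9. Within untreated rats (n = 6) r with these markers was 0.81 for Cx3cr1 and 0.84 for Cxcl16. Cx3cr1 also followed the T and NK cell markers at r = 0.88 (rho = 0.80, adjusted permutation p = 7.6e-05) and the stromal markers at r = 0.82 (rho = 0.86, adjusted permutation p = 7.6e-05), with 0.83 and 0.85 without the 2 farthest rats. Within untreated rats (n = 6) these 2 values of r were 0.067 and 0.51. Cx3cr1 and Cxcl16 also followed each other at r = 0.84 (rho = 0.83, adjusted permutation p = 7.6e-05), with 0.83 without the 2 farthest rats. The macrophage marker mean was 5.58 ± 0.15 log2 CPM in untreated, 5.48 ± 0.43 in i.p. ASC, 5.40 ± 0.71 in i.v. ASC and 5.59 ± 0.49 in CM rats, with a smallest exact permutation p of 0.630 among the group comparisons. Cd68, a lysosomal protein of macrophages, was at 69.9 ± 12.7 TPM and Csf1r, the receptor of their growth factor, at 34.9 ± 7.43 TPM in untreated rats.

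**Figure D4:**
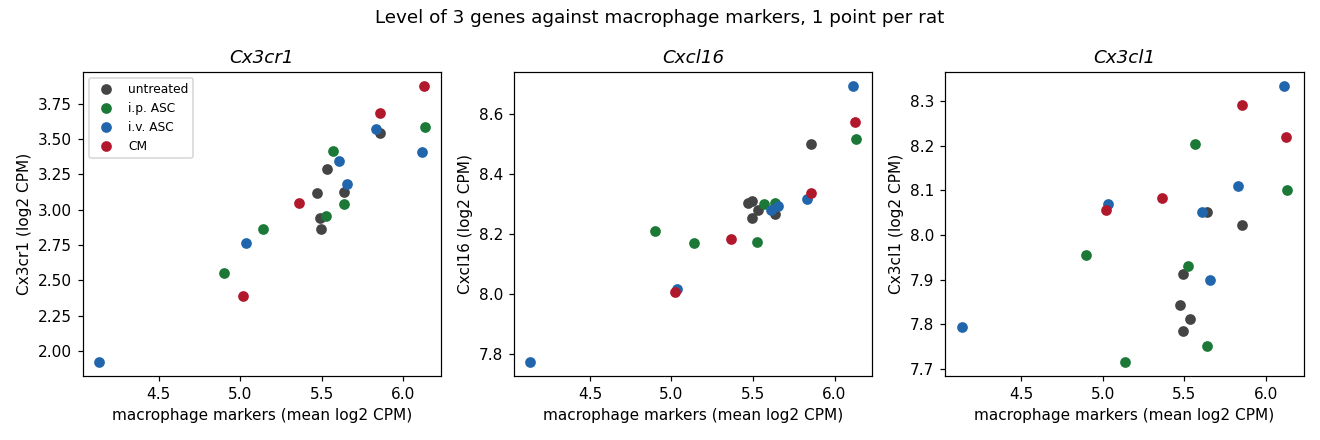
Log2 CPM of Cx3cr1, Cxcl16 and Cx3cl1 (y axes) against the mean log2 CPM of 12 macrophage markers (x axes), 1 point per rat, coloured by group. Cx3cr1 (r = 0.93) and Cxcl16 (r = 0.92) rise with the markers, with i.v. ASC rat 3 at the lower left, and Cx3cl1 (r = 0.51) scatters more widely.

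Ccl5 followed the T and NK cell markers at r = 0.89 (rho = 0.79, adjusted permutation p = 7.6e-05), with 0.82 without the 2 farthest rats and 0.83 without i.v. ASC rats 3 and 8, and r was 0.51 within untreated rats (n = 6). Its relation to the macrophage markers was of nearly the same size, at r = 0.86 (rho = 0.68, adjusted permutation p = 7.6e-05), and that to the stromal markers was at r = 0.74 (rho = 0.62, adjusted permutation p = 0.000585), with 0.78 and 0.75 without the 2 farthest rats. Within untreated rats these 2 values of r were 0.52 and -0.0078 (n = 6). Ccl5 also followed Cxcl16 at r = 0.87 (rho = 0.76, adjusted permutation p = 7.6e-05), with 0.78 without the 2 farthest rats. Cd3e, a chain of the T cell receptor complex, stood at 27.9 ± 5.89 TPM in untreated rats. Cxcl1 followed the injured tubule markers at r = 0.69 (rho = 0.57, adjusted permutation p = 0.00123), the percentile 99.2 of all genes, with 0.53 without the 2 farthest rats and 0.58 without rats 3 and 8 (adjusted permutation p = 0.0309). Within untreated rats r was 0.56 (n = 6), and over the 22 rats Cxcl1 followed the macrophage markers at r = 0.71 (rho = 0.64, adjusted permutation p = 0.00134), with 0.61 without the 2 farthest rats and 0.38 within untreated rats. Lcn2, a secreted protein of injured tubules, was at 359 ± 96.8 TPM and Havcr1 (Kim-1) at 97.5 ± 42.3 TPM in untreated rats. Cxcl12 followed the stromal markers at r = 0.72 (rho = 0.60, adjusted permutation p = 0.000912), with 0.61 without the 2 farthest rats and 0.65 without rats 3 and 8 (adjusted permutation p = 0.0115). The direction differed by group, with r = -0.98 in untreated, 0.92 in i.p. ASC and 0.82 in i.v. ASC rats (n = 6 each), and this difference was not tested.

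Fractalkine and its receptor were related less closely. Cx3cl1 and Cx3cr1 had r = 0.56 (rho = 0.60, adjusted permutation p = 0.0131), with 0.55 without the 2 farthest rats. Without i.v. ASC rats 3 and 8 r was 0.51 and the adjusted permutation p 0.0644, so the pass depended on those rats. Ccl2 and Cxcl1 had r = 0.67 (rho = 0.57, adjusted permutation p = 0.0028), and 0.40 without rats 3 and 8 (adjusted permutation p = 0.136), which here are also the 2 farthest rats. Cxcl12 and Cx3cl1 had r = 0.61 (rho = 0.70, adjusted permutation p = 0.00707), with 0.65 without the 2 farthest rats, and with group means removed r was 0.54 and the adjusted permutation p 0.0537. No member passed with the proximal tubule markers, where r lay between -0.44 for Cx3cr1 and 0.033 for Cxcl10.

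**Figure D5:**
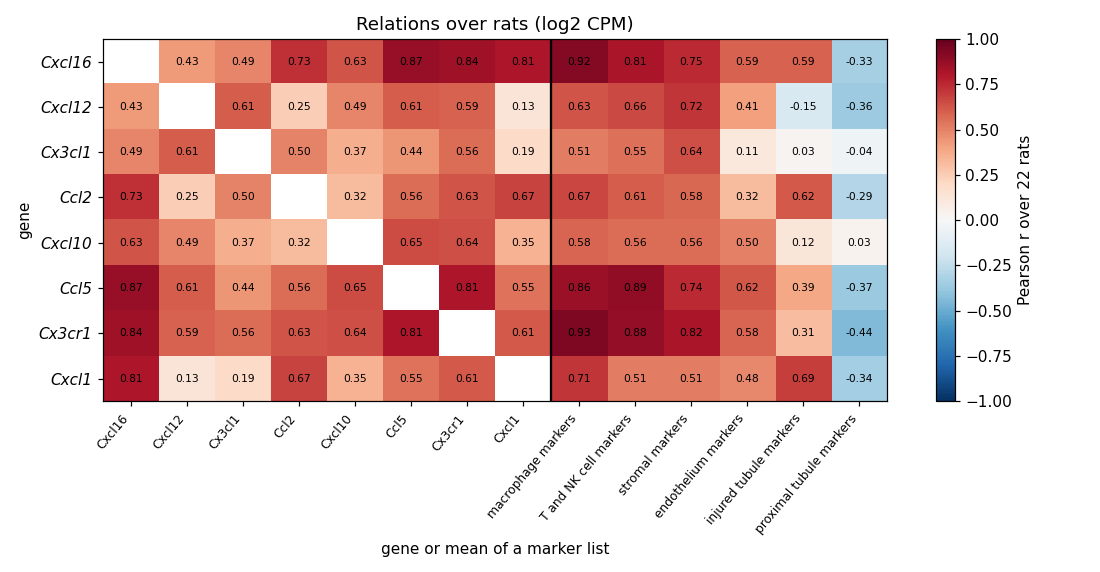
Pearson r over 22 rats (log2 CPM) between each gene (y axis) and the other genes or the mean of 6 marker lists (x axis), printed in each cell and coloured red for positive and blue for negative. Values run from 0.93 for Cx3cr1 with macrophage markers to -0.44 for Cx3cr1 with proximal tubule markers.

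The genes whose log2 CPM was most like that of each member over the 22 rats are given as a description, with no test. Nearest to Cx3cr1 were the myeloid kinase Fgr (r = 0.95), Csf1r (0.94) and the leukocyte integrin partner Fermt3 (0.94). Nearest to Cxcl16 were Aif1 (0.94), the complement chain C1qb (0.93) and Pea15 (0.93), and Aif1, C1qb and Csf1r belong to the macrophage list. Ccl2 was nearest to Apobec1 (0.88), the monocyte attractant Ccl7 (0.88) and Prtfdc1 (0.81). For Cxcl10 these were the interferon-induced genes Oasl (0.85) and Mx1 (0.84) and RT1-S3 (0.84), a class I gene whose reads can be shared with near-identical copies. Ccl5 was nearest to Olfml3 (0.92), Tgfb1 (0.90) and Pld4 (0.90). Cxcl1 was nearest to Pnp (0.87), Tifa (0.86) and Arl4c (0.85). Cxcl12 was nearest to Spon1 (0.88), Crispld2 (0.86) and Begain (0.86). Cx3cl1 was nearest to Cxcl14 (0.83), the proteoglycan Dcn (0.81), which is in the stromal list, and Hcrtr1 (0.79).

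The rest of the chemokine system was read from lists of genes chosen by name, likewise with earlier results of these data known. In these lists 0 genes passed edgeR's adjusted threshold in any comparison. Of 24 other ligands tested, 14 had a fitted increase in the i.p. group, 17 in the i.v. group and 14 with CM, with median log2 fold changes of 0.053, 0.11 and 0.064 against -0.014, -0.011 and -0.0029 over all genes. Fitted increases made up 46.2%, 47.5% and 49.1% of all genes in these groups. None of these ligands had an unadjusted p under 0.05. Cxcl9, like Cxcl10 a ligand of Cxcr3, was at 14.9 ± 3.36 TPM in untreated and 9.36 ± 2.62 in i.p. ASC rats (log2 -0.59, SE 0.29, adjusted p = 0.771). Ccl11 (eotaxin) was low at 0.834 ± 0.226 TPM in untreated and 1.21 ± 0.530 in i.v. ASC rats (log2 0.66, SE 0.35, adjusted p = 0.523). The 4 i.v. ASC rats high in urothelium genes were also left out, here and for the lists that follow, an alternative chosen after seeing the data. Only i.v. ASC rats 8 and 14 then remain in that group. Without the 4 rats, 20 of 25 ligands tested had a fitted increase after ASC i.v. Their median was 0.40, against -0.020 over all genes, and Ccl11 was at log2 -0.057.

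Of 16 other receptors tested, 8 had a fitted increase after either ASC route and 5 after CM. The share of all genes with a fitted increase was 46.2% in the i.p. group, 47.5% in the i.v. group and 49.1% with CM. Ackr3, a scavenging receptor that binds Cxcl12, stood at 54.9 ± 4.43 TPM in untreated, 45.5 ± 7.65 in i.p. ASC, 42.4 ± 9.90 in i.v. ASC and 39.9 ± 11.2 in CM rats. Its fold change was below 1 by value after CM (log2 -0.42, SE 0.14, unadjusted p = 0.00726, adjusted p = 0.711, edgeR) and after ASC i.v. (log2 -0.27, SE 0.12, unadjusted p = 0.0391, adjusted p = 0.523, edgeR), the only other receptor with an unadjusted p under 0.05 in either. Cxcr4, the signalling receptor of Cxcl12, was at 24.1 ± 4.23 TPM in untreated and 22.8 ± 7.92 in CM rats (log2 -0.039, SE 0.34, adjusted p = 0.997). Ccr9, a receptor of gut-homing lymphocytes, was at 2.27 ± 0.282 TPM in untreated and 1.699 ± 0.312 in i.p. ASC rats (log2 -0.32, SE 0.16, adjusted p = 0.771). Without the 4 rats, 14 of 17 receptors had a fitted increase after ASC i.v. and Ackr3 was at log2 0.011 (unadjusted p = 0.941, edgeR).

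Among the enzymes that release or trim chemokines, 6 of 7 tested had a fitted decrease after either ASC route and 5 of 7 after CM. The median log2 fold changes of the enzymes were -0.18 (i.p. group), -0.19 (i.v. group) and -0.17 (CM). Over all genes these medians were -0.014, -0.011 and -0.0029, and fitted decreases made up 53.8%, 52.5% and 50.9%. No enzyme passed. Adam10 was at 43.1 ± 4.77 TPM in untreated and 35.9 ± 6.10 in i.p. ASC rats (log2 -0.18, SE 0.087, adjusted p = 0.771). Adam17 was at 25.8 ± 2.97 TPM in untreated and 21.01 ± 4.51 in i.v. ASC rats (log2 -0.19, SE 0.080, unadjusted p = 0.0250, adjusted p = 0.523, edgeR). Dpp4, an exopeptidase that trims Cxcl12 and Cxcl10, was at 146 ± 24.5 TPM in untreated and 196 ± 72.2 in CM rats (log2 0.51, SE 0.34, adjusted p = 0.772). Mmp14, a membrane metalloproteinase, was at 67.7 ± 10.99 and 57.3 ± 20.8 TPM in these groups. Without the 4 rats, 3 of 7 enzymes had a fitted decrease after ASC i.v., with a median of 0.16, and Adam17 was at log2 -0.012 (unadjusted p = 0.893, edgeR).

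Downstream of the receptors, 14 of 17 signalling genes had a fitted increase after CM, where the median log2 fold change was 0.094, against 49.1% of all genes with a fitted increase. After ASC i.v. these were 7 of 17 and after ASC i.p. 4 of 17, against 47.5% and 46.2% of all genes. Gnai2, an inhibitory G protein alpha subunit, was at 424 ± 36.8 TPM in untreated and 403 ± 76.1 in CM rats (log2 -0.019, SE 0.12, adjusted p = 0.994), and Gnb1, a beta subunit, at 239.5 ± 22.8 and 208 ± 42.7 TPM (log2 -0.15, SE 0.084, adjusted p = 0.720). Tiam1, an activator of Rac, was at 3.52 ± 0.549 TPM in untreated and 3.92 ± 1.01 in i.v. ASC rats (log2 0.27, SE 0.13, unadjusted p = 0.0494, adjusted p = 0.523, edgeR). Without the 4 rats, 13 of 17 signalling genes had a fitted increase after ASC i.v. and Tiam1 was at log2 0.14 (unadjusted p = 0.348, edgeR).

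Upstream, in the interferon response list, 19 of 20 genes had a fitted decrease after ASC i.v. and 17 of 20 after ASC i.p., against 52.5% and 53.8% of all genes, and 11 of 20 after CM against 50.9%. Median log2 fold changes were -0.13, -0.069 and -0.011. Rsad2 (viperin) was at 10.2 ± 2.69 TPM in untreated and 6.15 ± 1.22 in i.v. ASC rats (log2 -0.60, SE 0.21, unadjusted p = 0.0107, adjusted p = 0.523, edgeR). Gbp2, a guanylate-binding protein, was at 49.7 ± 14.2 and 36.1 ± 9.26 TPM in these groups (log2 -0.35, SE 0.17, adjusted p = 0.523). The immunoproteasome genes were close between them, with Psmb8 at 189 ± 10.1 and 169.9 ± 31.5 TPM (log2 -0.036, SE 0.13, adjusted p = 0.922) and Psmb9 at 161 ± 11.9 and 144 ± 35.3 TPM (log2 -0.048, SE 0.17, adjusted p = 0.916). The count after ASC i.v. changed when the 4 rats high in urothelium genes were left out, which leaves only i.v. ASC rats 8 and 14. The cause of this change was not tested. Without the 4 rats 11 of 20 genes had a fitted decrease and the median was -0.026. The log2 fold change was then -0.35 for Rsad2 (unadjusted p = 0.271, edgeR), -0.071 for Gbp2, 0.13 for Psmb8 and 0.23 for Psmb9.

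In the NF-kB list, 11 of 18 genes had a fitted decrease with CM, 11 in the i.p. group and 12 in the i.v. group, where without the 4 rats it was 4 of 18. With all rats, fitted decreases made up 50.9%, 53.8% and 52.5% of all genes with CM, in the i.p. and in the i.v. group. Nfkbib, an inhibitor of NF-kB, was at 35.5 ± 2.59 TPM in untreated and 41.0 ± 1.65 in i.p. ASC rats (log2 0.30, SE 0.084, unadjusted p = 0.00159, adjusted p = 0.771, edgeR). Chuk, a kinase that frees NF-kB, was at 24.2 ± 2.35 and 27.9 ± 5.13 TPM (log2 0.30, SE 0.13, unadjusted p = 0.0316, adjusted p = 0.771, edgeR). Nfkbia, the feedback inhibitor, was at 193 ± 32.5 TPM in untreated and 159 ± 36.4 in CM rats (log2 -0.21, SE 0.15, adjusted p = 0.787), and Tnfrsf1a, a receptor of tumour necrosis factor, at 115 ± 7.45 and 104 ± 28.0 TPM (log2 -0.10, SE 0.13, adjusted p = 0.924).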

How the data were processed

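Whole left kidney RNA of 22 rats was sequenced (BGISEQ-500), per the labels and the study's methods, which name DESeq2. The authors deposited estimated counts and TPM per gene. The submitters' processing notes name Trim Galore 0.6.4, kallisto 0.4.6 and build rn6, without roles. In the deposited counts 14.1% of values were not whole and were rounded, and estimated counts split reads between near-identical copies. RefSeq (GRCr8) gave symbols for 17179 of 17334 genes and the promoters shown, and the gene coordinates of the deposited build were not used.

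Counts were tested with edgeR 4.0.16 (R 4.3.3, TMM, filterByExpr, quasi-likelihood test, all 4 groups in 1 fit, Benjamini-Hochberg over 12867 genes, threshold 0.05). The test was checked on simulated counts with changes larger than any fitted here for a member. That check does not show how often smaller changes would be found. Alternatives were DESeq2 1.42.0, limma 3.58.1 on log2(TPM + 1), sva 3.50.0, other filters and scaling, cell marker covariates and leaving out each rat. Log2 CPM used a prior count of 2. Exact and permutation tests were computed in Python 3.11.15 with numpy 2.4.6, and their p-values were adjusted with scipy 1.17.1.

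Named genes were all members, from each pathway list the genes that passed (there were none), the 2 of highest mean TPM and the 2 of smallest unadjusted p against untreated rats, the first 2 of each marker list, and the 3 genes nearest to each member by Pearson r. Members and lists were chosen with earlier results of these data known. Totals of 12195682 to 14734772 per rat set the precision, and the low genes carry counting error. No 2 libraries of a group agreed within sampling noise (chi-square per gene 7.51 or more). The labels do not say more than the animal number, so p-values measure the spread between these rats.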

Additional observations from a re-analysis of the deposited data

Results flagged for a closer look

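In untreated rats, Cxcl16 was at 8.50 log2 CPM in rat 24 and between 8.25 and 8.31 in the other 5 rats, so that rat stood apart from its group. The mean of the B cell markers was 1.45 log2 CPM in i.v. ASC rat 3 and between 3.49 and 4.13 in the rest of its group. The mean of the urothelium markers was 1.16 in untreated rat 23 and between -1.33 and -0.55 in the others, and 0.13 in i.p. ASC rat 7 and between -1.35 and -0.95 in the others. Each was far from its group by Dixon's test at the 95% level. Of 72 groups of values tested 4 stood out in this way, and chance alone marks about 5% of groups.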

How the results depend on the processing

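Over 32 member log2 fold changes and 1088 values under the alternatives, no member passed the threshold, and the lowest adjusted p was 0.405. In 126 values the sign changed, 27 of the 32 fold changes changed sign at least once, and the 5 that never did were those of Ccl2 (CM), Cx3cl1 (CM, i.v. against i.p. ASC, i.v. ASC) and Cxcl12 (CM). The cause of the sign changes was not tested. The values that changed sign follow, as log2 fold changes with the comparison in brackets. With 1 surrogate variable they were Ccl2 0.14, Ccl5 0.064, Cxcl10 0.18, Cxcl16 0.092 and Cx3cr1 0.25 (i.p. ASC), Cxcl10 0.10, Cxcl16 0.071 and Cx3cr1 0.27 (i.v. ASC), Cxcl1 0.0029 and Cxcl16 0.10 (CM), Cxcl12 0.019 (i.v. against i.p. ASC). With the proximal tubule marker mean as a covariate they were Cx3cr1 0.0063 (i.p. ASC), Cxcl16 0.0082 (CM), Cx3cr1 -0.071 (i.v. against i.p. ASC). With the urothelium marker mean as a covariate they were Cxcl1 -0.017 (i.p. ASC), Ccl5 0.34, Cxcl10 0.0063, Cxcl16 0.17 and Cx3cr1 0.28 (i.v. ASC), Ccl5 -0.037 (CM), Ccl5 0.66, Cxcl1 0.51, Cxcl10 0.037, Cxcl12 0.27 and Cxcl16 0.22 (i.v. against i.p. ASC). Without the 4 i.v. ASC rats high in urothelium genes they were Ccl5 0.37, Cxcl10 0.21, Cxcl16 0.20 and Cx3cr1 0.33 (i.v. ASC), Ccl5 0.64, Cxcl1 0.56, Cxcl10 0.21, Cxcl12 0.36 and Cxcl16 0.22 (i.v. against i.p. ASC). In limma on log2(TPM + 1) they were Cxcl1 -0.038, Cxcl12 -0.064 and Cx3cl1 -0.052 (i.p. ASC), Ccl2 -0.17, Cxcl1 -0.22 and Cxcl12 -0.11 (i.v. ASC), Ccl5 -0.16 (CM), Cx3cr1 -0.042 (i.v. against i.p. ASC). In limma on log2(TPM + 0.1) they were Cxcl1 -0.043, Cxcl12 -0.065 and Cx3cl1 -0.053 (i.p. ASC), Ccl2 -0.17, Cxcl1 -0.27 and Cxcl12 -0.11 (i.v. ASC), Ccl5 -0.17 (CM), Cx3cr1 -0.052 (i.v. against i.p. ASC). As differences of mean log2 CPM they were Cxcl10 0.029 (i.p. ASC), Ccl2 -0.055 and Cxcl1 -0.15 (i.v. ASC), Ccl5 -0.10 (CM), Cx3cr1 -0.037 (i.v. against i.p. ASC). Leaving out 1 rat at a time gave ranges that cross 0. For i.p. ASC these were Ccl2 -0.22 to 0.041, Cx3cl1 -0.010 to 0.094, Cx3cr1 -0.17 to 0.038, Cxcl1 -0.087 to 0.14, Cxcl10 -0.12 to 0.15, Cxcl12 -0.031 to 0.20 and Cxcl16 -0.089 to 0.0013. For i.v. ASC these were Ccl2 -0.24 to 0.15, Cx3cr1 -0.15 to 0.11, Cxcl1 -0.36 to 0.17, Cxcl10 -0.24 to 0.054, Cxcl12 -0.041 to 0.16 and Cxcl16 -0.17 to 0.015. For CM these were Ccl5 -0.29 to 0.27, Cx3cr1 -0.028 to 0.41, Cxcl10 -0.065 to 0.47 and Cxcl16 -0.14 to 0.045. For i.v. against i.p. ASC these were Ccl2 -0.16 to 0.23, Ccl5 -0.30 to 0.13, Cx3cr1 -0.10 to 0.16, Cxcl1 -0.38 to 0.14, Cxcl12 -0.14 to 0.090 and Cxcl16 -0.14 to 0.045.

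The number of genes called in all moved more. DESeq2 called 28 genes for i.v. ASC, 4 for CM, 24 between routes and 44 for any difference, against 0, 0, 0 and 11 by edgeR. CM had 1 call with only its 2 groups fitted and 1 without the 4 i.v. ASC rats high in urothelium genes. With 1 surrogate variable there were 4 calls between routes and 4 for any difference. Any difference had 0 calls with at least 10 counts in every rat, with the urothelium covariate, without those 4 rats, and in limma on log2(TPM + 1) and on log2(TPM + 0.1). Leaving out 1 rat gave 0 to 14 calls for i.v. ASC (11 without i.v. ASC rat 8 and 14 without rat 14), 0 to 2 for CM (2 without i.v. ASC rat 9), 0 to 13 between routes (13 without i.v. ASC rat 8 or 14) and 0 to 18 for any difference (0 without i.v. ASC rat 9, 5 without rat 3 or 13 and 18 without rat 14). Relations that passed numbered 52, and 21 without i.v. ASC rats 3 and 8. The urothelium alternatives and the one without rats 3 and 8 were chosen after seeing the data. No paired analysis was possible because no animal number is shared between groups. With 4 CM rats and few counts for Cxcl1, Ccl5 and Cx3cr1, the intervals of these genes are wide, and a missed threshold does not show that they did not change.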
